A study of Mus musculus with 2 samples.

Results

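The 49 genes described here encode the proteins that copy DNA in S phase of the cell cycle, the kinases and cyclins that start the process, and E2F factors that switch the genes on. They were chosen by name, for their role in replication, and make up 49 of the 21938 protein-coding genes of the annotation. Chromatin was profiled by DNase-seq, in which nuclei are exposed to the nuclease DNase I and the ends of the DNA it releases are sequenced, so that accessible sites appear as peaks of cuts. The tissue was liver of B6NCrl mouse embryos at 11.5 days, pooled over males and females, with no genetic change and no treatment named in the labels. Both libraries, technical replicate 7 and technical replicate 1, came from biological replicate 1, and the labels name sequencing instruments for the former only. There was no second group, so no value has a biological error and no test across samples was possible.

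At this stage the liver is a blood-forming organ, in which red cell precursors divide rapidly beside hepatoblasts, the precursors of hepatocytes and bile duct cells. A replication origin is marked by the origin recognition complex, loaded with the MCM helicase in G1 phase, and fired when cyclin-dependent kinases recruit the remaining helicase subunits and the polymerases. Many of these genes are known to be repressed in resting cells and switched on before S phase through E2F sites near their starts, often beside CCAAT boxes, the site of the factor NF-Y.

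Every one of the 49 genes was open, and the sequence at the open sites was rich in E2F letters. A gene was called open where a peak present in both libraries had its centre within 1000 bp of an annotated start, and all 49 met this, beside 59% of all protein-coding genes. A peak of technical replicate 7 alone was at a start of 65% of them and one of technical replicate 1 at 59.6%. Of the 49, 37 lay in CpG-rich sequence (a ratio of observed to expected CpG of at least 0.6 and at least 50% G and C in 1000 bp around the 5′ end), beside 70% of all open genes. Of all CpG-rich protein-coding genes 93% were open, so that the open share of the 37 was close to that of their promoter class. The remaining members, which are not CpG-rich, were open as well, and the 93% does not apply to them. The core letters of the E2F site occurred at 20 of the 49 promoters, beside 5.32% of the 9057 open CpG-rich promoters. No test was made of these differences, and in a bulk tissue fewer cells with an open promoter and a less open promoter in each cell cannot be told apart.

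The letters searched were TTTCCCGC, TTTCGCGC, TTTGCCGC and TTTGGCGC, on both strands, in the 300 bp centred on the strongest promoter peak of technical replicate 7. The 8 windows of 30 bp that follow are shown because the letters in them overlapped a footprint, a short stretch inside an open site that was cut less than its surroundings. The first 6 are all the member windows with letters footprinted in both libraries, where an overlap of 1 bp was enough. The Mcm2 window holds a palindrome footprinted in technical replicate 1. The Cdc6 window was footprinted in technical replicate 7, at the edge of its letters. All are from the mouse genome GRCm38 (mm10), read 5′ to 3′ along the strand of the gene, with the E2F letters in capitals.
Mcm3, chr1:20820275-20820304, minus strand: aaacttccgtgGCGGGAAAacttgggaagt
Mcm5, chr8:75109347-75109376, plus strand: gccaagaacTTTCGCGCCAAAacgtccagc
Mcm5, chr8:75109550-75109579, plus strand: ggaggctggttTTTCCCGCgaaagtcggct
Mcm6, chr1:128359795-128359824, minus strand: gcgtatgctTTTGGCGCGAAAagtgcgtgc
Mcm7, chr5:138172030-138172059, minus strand: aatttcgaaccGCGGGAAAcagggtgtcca
E2f1, chr2:154569870-154569899, minus strand: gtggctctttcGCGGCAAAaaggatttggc
Mcm2, chr6:88898678-88898707, minus strand: tggtctagtTTTCGCGCGAAAaccggtggc
Cdc6, chr11:98907830-98907859, plus strand: agtagagcggcTTTGGCGCgagttgacttt

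In 3 of these windows the capitals run over 12 bases, because 2 matches on opposite strands overlapped to form a double site, TTTCGCGCGAAA at Mcm2, TTTCGCGCCAAA at Mcm5 and TTTGGCGCGAAA at Mcm6. These are subunits of one ring, the MCM helicase that unwinds DNA ahead of the polymerases. Such overlapping pairs were counted after the windows had been seen. They occurred at 7 of the 12944 open protein-coding genes (0.0541%), among them Mcm2, Mcm5, Mcm6, Nasp and Mycn. A single site was counted for each of 2 neighbouring genes, so the distinct sites were fewer. Mycn is not among the replication genes described here, and its pair overlapped no footprint. Nasp, which encodes a histone chaperone, belongs to the further replication genes described later. A match of letters is a description of the sequence and not a site shown to be bound.

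The layout of whole promoters differed among the members. The stretches that follow lie directly before the annotated start and are shown because Mcm5 combined E2F and CCAAT letters, Orc1 combined both kinds with the E2F letters close to the start, and Pold1, with the highest mean rank of all members, had neither in this stretch. Capitals mark CCAAT letters on either strand and E2F letters, in Orc1 including a match of a second E2F set that overlaps the first.
Mcm5, chr8:75109369-75109568, plus strand: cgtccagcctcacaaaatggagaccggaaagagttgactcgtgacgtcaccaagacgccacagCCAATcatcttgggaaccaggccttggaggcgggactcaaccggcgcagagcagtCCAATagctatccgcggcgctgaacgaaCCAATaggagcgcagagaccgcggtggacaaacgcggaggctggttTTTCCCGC
Orc1, chr4:108579337-108579453, plus strand: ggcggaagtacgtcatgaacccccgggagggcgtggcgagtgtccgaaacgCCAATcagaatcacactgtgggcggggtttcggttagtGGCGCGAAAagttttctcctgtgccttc
Pold1, chr7:44548848-44549047, minus strand: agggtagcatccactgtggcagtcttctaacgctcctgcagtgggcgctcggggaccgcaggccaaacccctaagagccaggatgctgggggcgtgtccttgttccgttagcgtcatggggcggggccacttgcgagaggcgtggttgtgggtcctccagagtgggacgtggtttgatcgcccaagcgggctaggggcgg

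The lists held 86036 peaks in technical replicate 7 and 42422 in technical replicate 1. The density of cuts at a peak, for which the headers give no unit, moved in steps of 0.00401 in technical replicate 7 and 0.0101 in technical replicate 1, so the former was the more finely resolved. Densities are therefore compared between genes within a library, by a rank percentile among the 12944 open genes. The strongest promoter peak was taken in each library separately. At Orc6, Mcm7 and Cdc45 the peaks so taken did not overlap, so their densities in the libraries are of different sites. Of 23 marker genes examined, a shared peak stood at a start of 4 of 6 erythroid genes, among them Gata1 and Klf1, and of 3 of 6 hepatoblast genes, Prox1, Foxa2 and Cebpa. The defining genes Alas2 and Alb had no promoter peak in technical replicate 7. A shared peak also stood at 2 of 3 endothelial genes, 2 of 2 mesenchymal genes and 1 of 3 macrophage genes (Spi1). Myod1 and Krt10, 2 of 3 genes of other tissues, had one as well, so that an open start alone did not separate liver genes from others.

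Peaks at the replication genes were strong for their class in density, though not in width. Technical replicates 7 and 1 gave the 49 median densities of 4.51 and 3.56, against 3.03 and 2.72 over all open genes. In both libraries 36 of the 49 were above the median of all open genes, beside 42.8% of all open genes. Among open CpG-rich promoters alone the 37 CpG-rich members had a median mean rank of 69.5, against 52.0 for all 9057, and 6 of them ranked above 90, beside 6.98%. Ranked by peak width instead, the same 37 fell to a median of 45.4 against 49.4. The broader hotspots around the 37 had a median −log10 FDR of 98.8 and 27.5 in the libraries, against 75.2 and 23.4 over open CpG-rich promoters. Their median width in technical replicate 7 was 1193 bp against 1284 bp. The peak centre lay within 150 bp of a start at 46 of the 49, beside 80.1% of open CpG-rich promoters. Its median position was -38 bp against -42 bp, where negative values lie before the start.

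**Figure D1:**
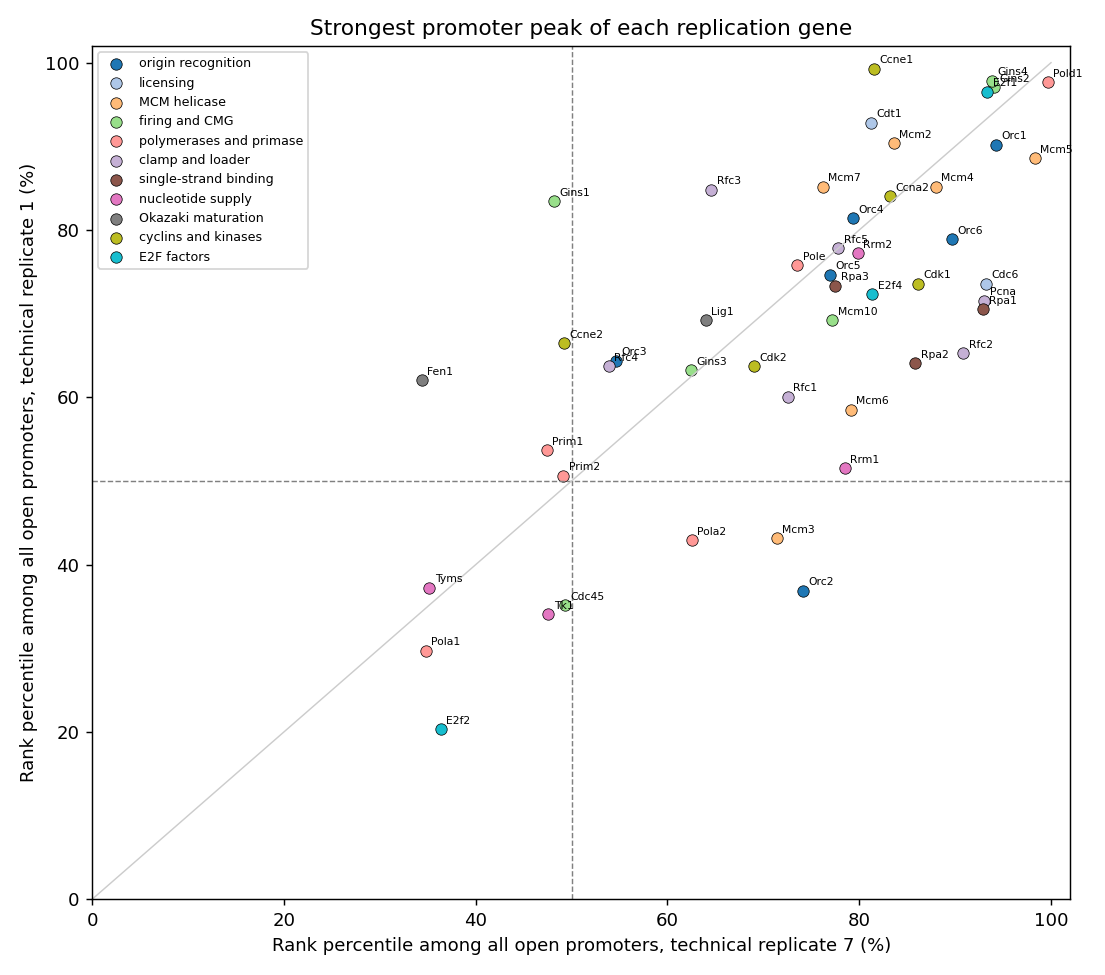
Rank percentile of the strongest promoter peak of each of the 49 genes among 12944 open genes, taken in each library separately. Technical replicate 7 is on the x axis and technical replicate 1 on the y axis, coloured by role, with dashed lines at 50. Pold1 is at the top right, E2f2 is lowest in technical replicate 1, and 36 genes lie above both dashed lines.

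The origin recognition complex is the ring of proteins that marks origins and loads the helicase. Orc1, its largest subunit, had the strongest promoter peak, with densities of 5.81 and 4.55 in technical replicates 7 and 1 and ranks of 94.2 and 90.2. The subunit gene Orc2 was lowest by mean rank (55.5), at 4.30 and 2.15, although Orc3 was lower in technical replicate 7. Its rank fell from 74.1 to 36.9 between the libraries, the widest gap of any member. Orc6 and Orc4 had densities of 5.36 and 3.88, and of 4.62 and 4.0, and Orc5 had 4.47 and 3.68. The Orc6 peaks of the libraries did not overlap. Orc3, at 3.28 and 3.27, had no footprint of technical replicate 7 within 1000 bp of a start, as did 3.9% of open CpG-rich promoters, yet it had 11 in technical replicate 1. None of the 6 genes had a distal open region in both libraries, and 3 of them, Orc1, Orc3 and Orc4, shared the promoter with a coding gene read in the opposite direction.

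Licensing of origins needs Cdc6 and Cdt1, which bring the helicase to the origin recognition complex. Cdc6 had densities of 5.69 and 3.64, and Cdt1 had 4.73 and 4.78. Both promoters were therefore in the upper part of the ranking in both libraries, from 73.6 to 93.2. Each carried 1 match of the E2F letters after the start, centred 43.5 bp into Cdc6 and 35.5 bp into Cdt1, and each match was footprinted in technical replicate 7 only.

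The MCM genes encode the 6 related subunits of the helicase ring. Mcm5 had the strongest peak in technical replicate 7 (chr8:75109302-75109593) and by mean rank, Mcm2 in technical replicate 1. Mcm5 had densities of 6.63 and 4.43 and ranks of 98.3 and 88.6. Mcm3 was lowest, at 4.14 and 2.42, with ranks of 71.4 and 43.2. Its position thus depended on the library, whereas Mcm4 (5.22 and 4.21) and Mcm2 (4.90 and 4.56) ranked above 80 in both. Mcm6 had 4.60 and 3.05, and Mcm7 had 4.43 and 4.21, though the Mcm7 peaks of the libraries did not overlap. All 6 promoters carried E2F letters, with 13 matches in all, 5 of the 6 carried CCAAT letters, and only Mcm2 had none of the latter in the window.

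The subunit genes differed in where the E2F letters lay. In Mcm2 the pair was centred 85.5 and 89.5 bp after the start. In Mcm5 a pair was centred at -209.5 and -205.5 bp, and a single match at -4.5 bp, with 3 CCAAT matches in between. In Mcm6 the pair was at -147.5 and -143.5 bp. Thus the double sites of these genes fell on both sides of the start and up to about 200 bp from it. Mcm7 had a match at -226.5 bp, footprinted in both libraries, and another at -45.5 bp, footprinted in technical replicate 7. Mcm7 also had 9 footprints of technical replicate 7 within 1000 bp of its start, the most of any member, and 17 of technical replicate 1.

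The helicase is completed and fired by Cdc45 and the GINS complex, with Mcm10 assisting. Gins4 and Gins2 were both near the top of the ranking, Gins4 with densities of 5.76 and 5.60 and Gins2 with 5.79 and 5.37. Cdc45 was lowest by mean rank (42.3), at 3.0 and 2.08, although Gins1 was lower in technical replicate 7. The Cdc45 peaks of the libraries did not overlap. GINS is a complex of 4 subunits, yet its 4 genes were spread over the ranking, with Gins3 at 3.71 and 3.23. Gins1 was at 2.93 and 4.11, with ranks of 48.2 and 83.5, and its peak centre lay 218 bp after the start. Mcm10 had 4.49 and 3.45. E2F letters were found at Gins3 alone of these 6 promoters. They were centred at -32.5 bp from the further downstream of its 2 annotated starts, and so after the start nearest the peak. CCAAT letters were at 5 of the 6 promoters, with 4 matches at Cdc45. At Gins1 the window searched lay wholly after the start.

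The polymerases and primase ranged from near the top of the ranking to its lower part. Pold1 (peak chr7:44548771-44549043), the catalytic subunit of the polymerase that copies the lagging strand, had the highest density of all 49 in technical replicate 7, at 7.40, and 5.55 in technical replicate 1. Pola1, the catalytic subunit of the polymerase that extends primers, had 2.15 and 1.85, with ranks of 34.8 and 29.7. Its partner Pola2 had 3.71 and 2.41. The primase genes Prim1 and Prim2 stood close to the middle of all open genes, at 2.88 and 2.87 and at 2.98 and 2.75. Pole, the catalytic subunit of the leading-strand polymerase, had 4.26 and 3.73. E2F letters were present at Pold1, Pole and Pola1, and the match at Pole, 5.5 bp after the start, was footprinted in technical replicate 7. The strongest and the weakest promoter of the group, Pold1 and Pola1, thus each carried 1 match. Neither was footprinted in the lists used, while a longer list of technical replicate 7 had a footprint on the match at Pold1.

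Pcna, the sliding clamp that holds polymerases on DNA, had densities of 5.67 and 3.56, the highest mean rank of its group at 82.3. The clamp is loaded by replication factor C, whose genes Rfc1 to Rfc5 ranged from 3.24 to 5.46 in technical replicate 7 and from 3.11 to 4.18 in technical replicate 1. Rfc4 was lowest by mean rank, with 3.24 and 3.25. Rfc2 had 5.46 and 3.30, Rfc5 had 4.53 and 3.83, Rfc1 had 4.21 and 3.11 and Rfc3 had 3.81 and 4.18. The order within this group changed with the library, Rfc2 being highest of the 5 loader genes in one and Rfc3 in the other. E2F letters of the first set were found at Rfc3 alone, with 2 matches, and Pcna had none of either set in its window.

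Replication protein A coats single-stranded DNA. Its genes had densities of 5.66 and 3.51 at Rpa1, 5.06 and 3.26 at Rpa2, and 4.51 and 3.63 at Rpa3. Rpa1 was highest by mean rank (81.7) and Rpa2 lowest (75), a narrow range. The 3 promoters were also alike in sequence: each had CCAAT letters and none had E2F letters of either set.

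The genes of nucleotide supply ranked lower than most groups, with a median mean rank of 52.9 over the 4. Rrm2, the regulated subunit of ribonucleotide reductase, had densities of 4.65 and 3.80, and Rrm1, the large subunit, had 4.56 and 2.79. Tyms, thymidylate synthase, had 2.18 and 2.17, with ranks of 35.2 and 37.2. Tk1, thymidine kinase, had 2.89 and 2.04 and its strongest peak was centred 200 bp after the start. Both thymidine genes were thus below the middle of all open genes in both libraries. No promoter of this group had letters of the first E2F set in its window, and Rrm1 alone had 1 match of the second. At Tk1 the window lay wholly after the start, so the sequence before the start was not searched there.

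Okazaki fragments, the short pieces of the lagging strand, are trimmed by Fen1 and joined by Lig1. Lig1 had densities of 3.78 and 3.45, and Fen1 had 2.13 and 3.18. Fen1 had the lowest density of all members in technical replicate 7 but ranked 62.0 in technical replicate 1. Lig1 had 1 match of the E2F letters 29.5 bp after the start, footprinted in technical replicate 1, and Fen1 had letters of the second set only.

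Among the cyclins and kinases, Ccne1, the cyclin E gene that acts at entry into S phase, had densities of 4.75 and 6.20, the highest of all members in technical replicate 1. The peak was at chr7:38107468-38107829. Its paralogue Ccne2 was lowest of the group by mean rank (57.8), at 2.99 and 3.34, although Cdk2 was lower in technical replicate 1. Ccne2 nonetheless had 8 footprints of technical replicate 7, more than any member but Mcm7. Ccna2, cyclin A, had 4.87 and 4.14. Cdk1, the kinase of mitotic entry, had 5.09 and 3.64 and Cdk2, the partner of cyclins E and A, had 4.03 and 3.25. E2F letters were found at both kinase genes, with no footprint over them in the lists used, and the cyclin genes had none of the first set. The longer list of technical replicate 7 had a footprint on the match at Cdk2.

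The E2F factors themselves ranged widely. E2f1, an activating E2F, had densities of 5.71 and 5.25, with ranks of 93.4 and 96.5. It had 2 matches of the E2F letters, 7.5 and 20.5 bp after its own start. A single footprint of technical replicate 7 covered the latter match and met the former only at its edge. The former match also overlapped a footprint of technical replicate 1, but the footprints of the libraries did not overlap each other. E2f2 (peak chr4:136172106-136172360), another activator, had 2.24 and 1.42, with the lowest mean rank of all members, 28.3. The repressive family member E2f4 had 4.74 and 3.59 and no E2F letters of either set. These 2 activators thus stood far apart in the ranking, and the match at E2f2, at -77.5 bp, had no footprint.

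Over all members, E2F, CCAAT and ETS letters were each more frequent than at open CpG-rich promoters. A second E2F set, whose matches can overlap those of the first, was found at 21 of the 49, beside 9.72%. Either set occurred at 28, beside 12.5%, and both sets at 13, beside 2.55%. At least 2 matches of the first set stood at 7 members, beside 0.243%. CCAAT letters occurred at 29, beside 38.7%, and at least 2 matches of them at 20, beside 16.2%. E2F and CCAAT letters stood together at 14, beside 2.35%. CCGGAA, the core of ETS factor sites, occurred at 25, beside 33.9%.

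Of the 4 other sets, TTTGAA or TTCGAA was above the background over the 49 on a small count, but not clearly over the CpG-rich members. The rest lay near the background or below it. GGGCGG, the GC box, occurred at 37 of the 49, beside 78.2%. TTTGAA or TTCGAA, the cell cycle homology region, occurred at 7, beside 9.2%, and those 7 were Mcm2, Mcm7, Gins3, Pola2, Rfc3, Rrm1 and Cdk1. Cdk1 was the only member with 2 such matches, at -42.5 and 13.5 bp. AAGATGGC, of YY1, occurred at 3, beside 6.15%, and the NRF1 palindrome at 0, beside 2.99%. The second E2F set was TTCCCGCC, TTGGCGCC, TTCGCGCC and TTGCCGCC. Because 12 members are not CpG-rich, the 37 that are were also counted alone: 16 had the first E2F set and 24 had CCAAT letters. TTTGAA or TTCGAA occurred at 4 of the 37 (10.8%), close to the 9.2% of open CpG-rich promoters.

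**Figure D2:**
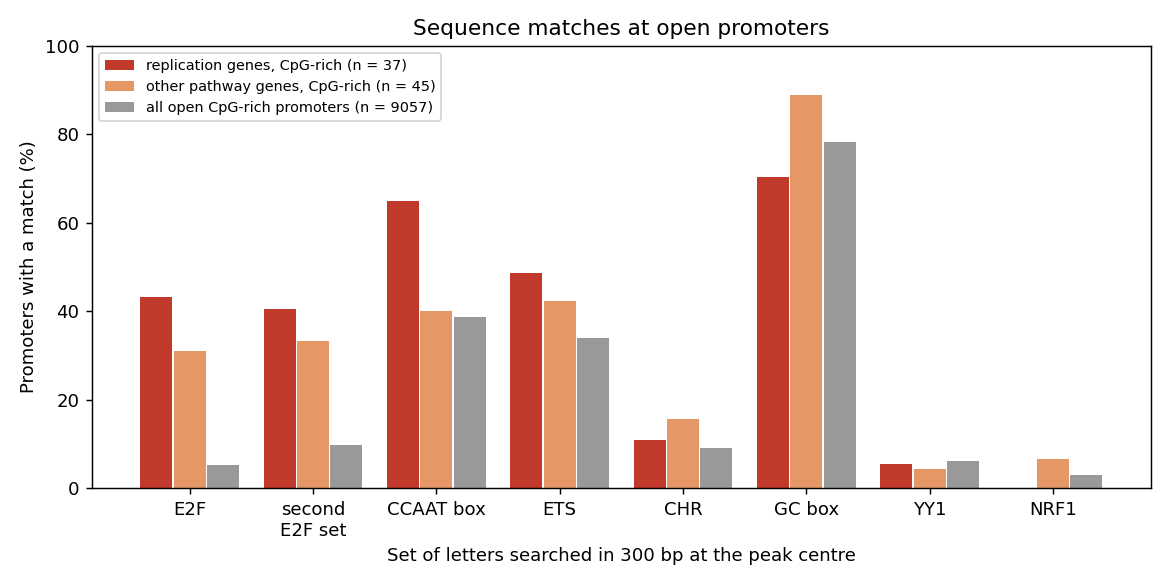
Share of promoters (y axis, %) holding each of 8 sets of letters (x axis) in 300 bp at the centre of the strongest peak, for the 37 CpG-rich replication genes, 45 further genes of the pathway and all 9057 open CpG-rich promoters. The E2F bars of both gene groups stand well above the grey bars, whereas the CCAAT bar does so for the 37 members only.

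Members with E2F letters did not stand out in strength. The 20 with the letters had median densities of 4.51 and 3.68 in technical replicates 7 and 1, and the 29 without had 4.51 and 3.45. Their median mean ranks were 77.3 and 75. The matches lay close to the start: of 29 matches, 15 (51.7%) were centred within 50 bp of the nearest start, with a median of -23.5 bp, whereas 31.4% of 510 matches at open CpG-rich promoters were that close, with a median of -54.5 bp. CCAAT letters lay further before the start, at a median of -52 bp over 58 matches, against -74 bp over 5870.

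Footprints were about as many at member promoters as elsewhere, and those on E2F letters were more frequent. Within 1000 bp of a start the 37 CpG-rich members had a median of 4 footprints of technical replicate 7, the same as all open CpG-rich promoters, and 8 of technical replicate 1 against 9. Against promoters in the same 10% band of strength, the 4 in technical replicate 7 stood beside a median of 5. The 37 had a median of 1 annotated start against 2, so that less sequence was counted. In the 300 bp at the peak centre, of equal length for all genes, the median was 4 against 3. Within 500 bp of a start it was also 4 against 3. After Mcm7 and Ccne2 the highest counts in technical replicate 7 were 7 each, at Pold1, Pcna and E2f1. E2F letters overlapped a footprint of technical replicate 7 at 9 members, Cdc6, Cdt1, Mcm3, Mcm5, Mcm6, Mcm7, Gins3, Pole and E2f1, beside 1.42% of open CpG-rich promoters. They overlapped one of technical replicate 1 also at 9, Orc1, Mcm2, Mcm3, Mcm5, Mcm6, Mcm7, Rfc3, Lig1 and E2f1, beside 2.22%. In both libraries they did so at 5, Mcm3, Mcm5, Mcm6, Mcm7 and E2f1, beside 0.883%. At E2f1 the footprints of the libraries met different parts of the letters and did not overlap each other.

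Among promoters that hold the letters, the footprinted share was less far apart. Of the 482 open CpG-rich promoters with the letters, 26.8% had them under a footprint in technical replicate 7 and 41.7% in technical replicate 1, against 9 of 20 members in each. Of the 5 genes footprinted in both libraries 4 are MCM genes, and each footprint there covered part or all of the 8 letters, with lengths from 9 to 18 bp. An overlap of 1 bp was enough to count. The footprint of technical replicate 7 reached only the edge of the Mcm7 match at -226.5 bp and of the E2f1 match at 7.5 bp. With the whole match required inside the footprint, 4 members were left in technical replicate 7, beside 0.287%. The footprint lists used for technical replicates 7 and 1 hold 107626 and 219621 intervals, and their numbers are not compared. A longer list of technical replicate 7, with 305961 intervals, had footprints on the E2F letters of 12 members, beside 2.67% of open CpG-rich promoters.

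**Figure D3:**
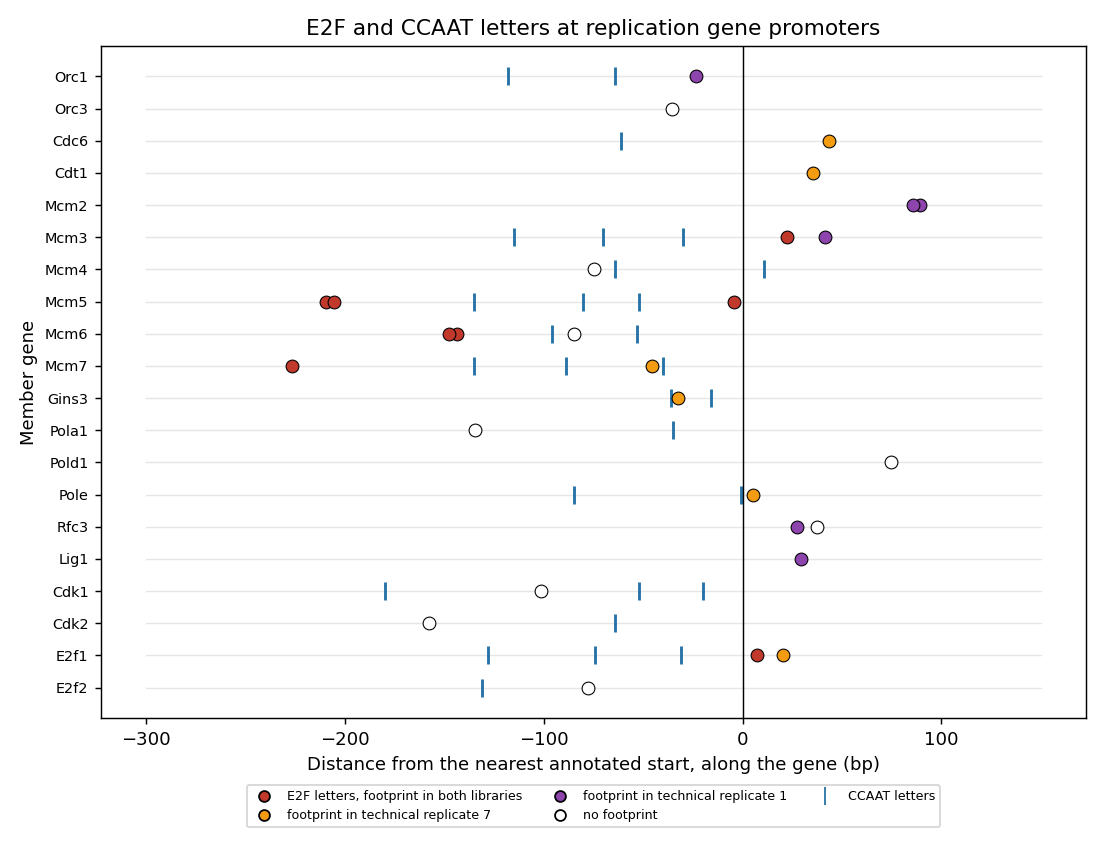
Position of E2F letters (circles) and CCAAT letters (bars) relative to the nearest start (x axis, bp, along the gene) at the 20 members with E2F letters, coloured by the libraries in which a footprint overlaps the E2F letters. Red circles, footprinted in both libraries, are at Mcm3, Mcm5, Mcm6, Mcm7 and E2f1 and range from -226.5 to 22.5 bp. At E2f1 the footprints of the libraries did not overlap each other.

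Several members share their promoter with another gene. A coding gene on the opposite strand started within 1000 bp upstream at 11 of the 49, beside 17.2% of open CpG-rich promoters. With non-coding genes included it was 18, beside 25.8%. The pairs were Orc1 with Prpf38a, Orc3 with Rars2, Orc4 with Mbd5, Mcm4 with Prkdc, Mcm7 with Ap4m1, Cdc45 with Ufd1, Pole with Pxmp2, Rpa1 with Smyd4, Rpa3 with Umad1 and Gm45062, Lig1 with Zswim9 and Fen1 with Tmem258. Among the partners, Prkdc encodes a kinase of DNA repair. The peak at such a promoter cannot be assigned to one gene of the pair. The 11 shared promoters had median densities of 4.43 and 3.63, and the 38 others 4.54 and 3.51.

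Distal open regions were no more frequent around the replication genes than around other genes. A distal region was one present in both libraries, over 1000 bp from any start and inside the gene or within 50 kb of it, and 30 of the 49 genes had at least 1, beside 73.1% of open CpG-rich genes. By technical replicate 7 alone it was 48, beside 97.2%, and by technical replicate 1 alone 31, beside 73.7%. The members were shorter, with a median span of 15.4 kb against 26.9 kb, so that less sequence was searched. The 30 genes had 100 regions, of which 46 lay in introns, 16 in exons and 38 between genes. Over all 14326 distal shared regions the shares were 47.6%, 8.82% and 43.5%. Only 7 of the 100 lay inside a member gene, in Pola2, Rpa2, Tk1, Ccne1 and, with 3 regions, E2f2. A region near a gene is not thereby assigned to it, and most of these stand in or beside other genes.

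At least 3 distal regions were found at 15 members, beside 31.8%. E2f2 had 10, the most of all members, although its promoter peak was the weakest by mean rank. At 2 of them the density exceeded that of the E2f2 promoter (2.24 and 1.42) in both libraries: chr4:136147764-136148087, at -24468 bp from the start, had 3.04 and 2.33, and chr4:136140343-136140630, at -31907 bp, had 2.98 and 2.70. The regions in the introns of E2f2 had densities of 0.59 and 1.02, of 1.45 and 1.51, and of 2.03 and 2.68, at 2608, 5725 and 7755 bp after the start. The last 2 of these had a higher density than the promoter in technical replicate 1, and all 3 a lower one in technical replicate 7.

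Ccne1 had 6 distal regions, and one of them was the strongest of all 100. It lay between genes at chr7:38084851-38085275, 22471 bp after the start and beyond the end of the gene, with densities of 5.94 and 4.76. In technical replicate 7 this was above the Ccne1 promoter itself (4.75), and in technical replicate 1 below it (6.20). The region held 11 footprints of technical replicate 7 and 9 of technical replicate 1, more in the former than any member promoter. Another region, at -34381 bp, had 2.36 and 1.93, and the remaining 4 had densities from 0.61 to 1.27.

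Pold1 had 8 regions, Gins2 and Tk1 had 7 each, and Cdc6 had 6. Of the 6 around Cdc6, 5 lay in introns of Rara, the neighbouring retinoic acid receptor gene, with densities from 0.96 to 1.93 in technical replicate 7. The 7 around Gins2 all lay in introns of other annotated genes, among them Gse1. The region inside Tk1, 1254 bp after the start, had 2.21 and 1.64, below the Tk1 promoter peak (2.89 and 2.04). Pola2, Cdk1 and E2f4 had 5 each and Pole had 4. The strongest of those at E2f4 in technical replicate 7, at -6560 bp in an exon of Gm20163, had 2.96 and 2.21. Cdt1, Mcm5, Rfc4, Rrm2 and Fen1 had 3 each. One of those at Mcm5, between genes at chr8:75083890-75084125 and at -25561 bp from the start, had 3.04 and 2.74.

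**Figure D4:**
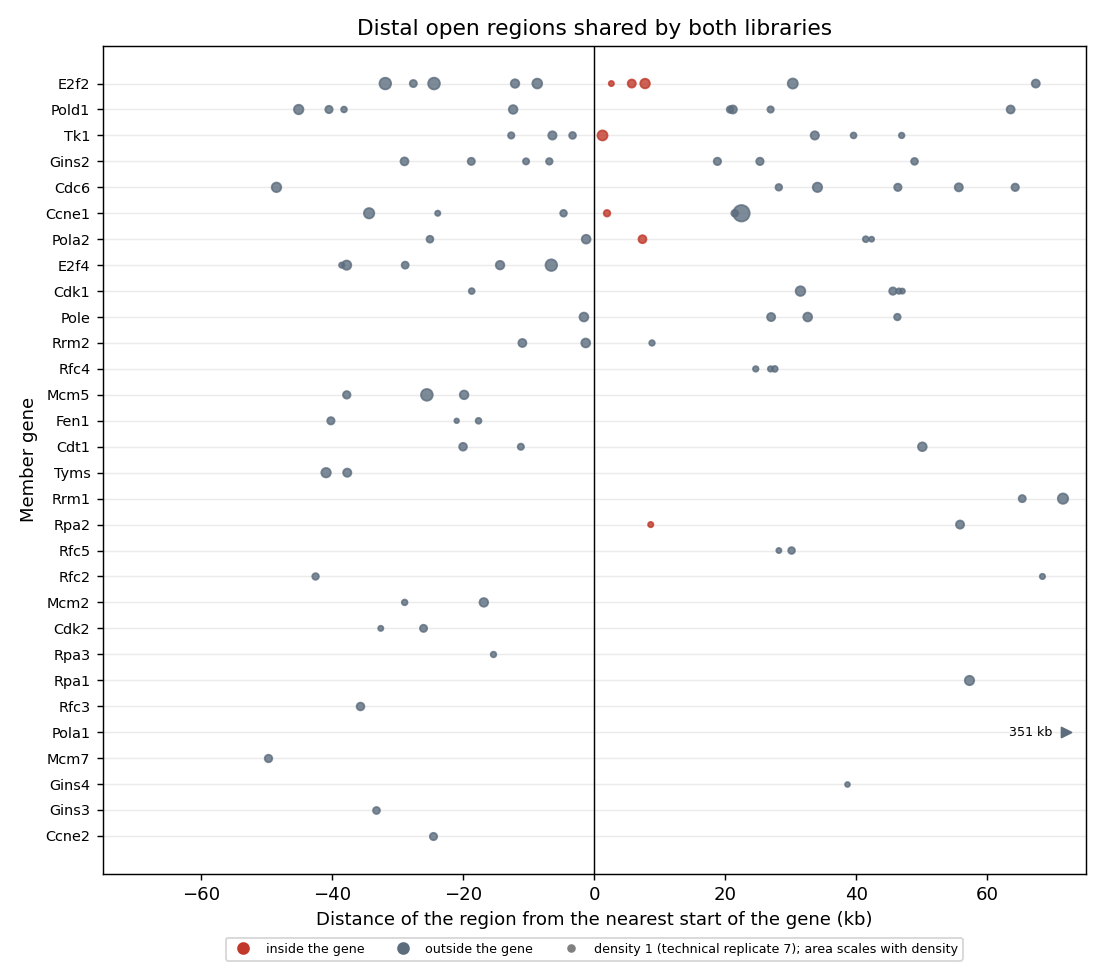
Distal open regions of both libraries at the 30 members that had any, by distance from the nearest start (x axis, kb), with area proportional to density in technical replicate 7 and regions inside the gene in red. The largest point is the Ccne1 region at 22471 bp, E2f2 has the most points, and the arrow marks a Pola1 region 350685 bp away, beyond the far end of that long gene.

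Among 52 further genes of the same pathway, which comprise 53 gene models because Chtf8 has 2, all were open in both libraries. Their median mean rank among open genes was 68.8, below the 75 of the 49 and above the 51.5 of all open genes. E2F letters were found at 19 of the 53, beside 4.81% of all open genes. They included Dnmt1 and Uhrf1, which copy DNA methylation onto new strands, the E2F genes E2f3, E2f7 and E2f8, and Rbl1, the gene of a retinoblastoma-related repressor. The letters were footprinted in both libraries at 5, namely Dnmt1, Dscc1, Mtbp, Rbl1 and Tipin, beside 0.773% of all open genes. CCAAT letters were at 18 of the 45 CpG-rich promoters of this group, beside 38.7% of all open CpG-rich promoters.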

How the data were processed

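DNase-seq peaks, hotspots and footprints of 2 libraries of 1 biological sample were used as the authors deposited them, on mm10 per the labels. Which aligner and callers were used is not given in the sources used here. Peaks carry a deposited signal, the maximum cut density. Hotspots carry a deposited −log10 FDR. Of 2 footprint lists of technical replicate 7, which are not nested, the shorter was used. Footprints of technical replicate 1 carry a constant deposited value of 0.01, read as a p-value or FDR limit and not used.

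Overlapping peaks of both libraries (at least 1 bp) were joined into 34017 shared regions, placed at the midpoint of the strongest peak of technical replicate 7. Starts came from GENCODE vM21 basic, sequence from GRCm38. Each promoter was represented by its strongest peak of each library, chosen separately, and ranked within that library. The steps ran in Python 3.11.15 with pandas 2.3.3 and were tested on simulated data with planted values. The members, lists and letters were chosen with earlier results of these data known. Named with full values were the strongest and weakest of each role, members with 3 or more distal regions, the 5 with most footprints, those with E2F letters footprinted in both libraries, and those with a divergent coding gene. A result on 1 gene of the pathway is not reported here. Alternatives for windows, lists, ranking and libraries were run. With only technical replicates no test was made.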

Additional observations from a re-analysis of the deposited data

How the results depend on the processing

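Of 36 alternatives run for 7 results, 29 kept the value within the limits set. All 49 members had a peak at a start under each of 6 alternatives, beside 49.1% to 65.0% of all protein-coding genes. Where 1 library was left out, a peak of the other library was counted and not a shared peak. The wider start window and technical replicate 7 alone could not lower the count. Median promoter strength rose to 75 (background 51.5) with all open genes as the reference and fell to 45.4 (background 49.4) when ranked by peak width; the other alternatives gave 65.9 to 73.2. Footprints per promoter had a median of 8 with the other list of technical replicate 7 (background 8), and 8 without technical replicate 7 (background 9). With 1 library left out, 31 to 48 members had distal regions, the 48 (background 97.2%) being without technical replicate 1. Within 20 kb of the gene the number was 20 (background 56.3%). The count with E2F letters under a footprint was 4 where the whole match had to lie inside. With non-coding starts included, 18 members had a divergent start. CpG content at the peak centre and footprints in 300 bp were alternatives chosen after seeing the data and left the values near the main ones. For footprints in 300 bp the median was 4, but the background was 3. No paired analysis was possible because there is 1 group. Sensitivity of the peak lists to depth could not be examined, since only deposited calls were used, and a region absent from technical replicate 1 may be under its threshold.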

Other observations

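Motif letters for GATA factors, which govern red cell genes, were counted in the distal regions after the data had been seen. AGATAA or TGATAA occurred in 22 of the 100 regions around the replication genes (22.0%), beside 23.6% of all 14326 distal shared regions. E2F letters occurred in 3 of the 100, at Mcm5, Rrm1 and E2f2, beside 1.95%. Technical replicates 7 and 1 gave the 100 median densities of 1.19 and 1.16, against 1.08 and 1.03.

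The libraries ranked 4 members apart by over 25 points in favour of technical replicate 7, namely Orc2, Mcm3, Rrm1 and Rfc2, and 2 in favour of technical replicate 1, Gins1 and Fen1. Over all open genes 5.15% and 4.80% were that far apart in these directions. The median gap was 9.72 points over the 49 members and 8.33 points over all open genes.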
